A study of Mus musculus with 86 samples.

Results

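Gene deserts are long stretches of the genome without protein-coding genes. The regions described here are 9308 binding regions of SOX2 and CTCF that lie more than 100 kb from the body of any protein-coding gene, out of 109664 regions of both factors. They were chosen by position: for each factor overlapping peaks of the 2 asynchronous lists were joined, only places found in both lists were kept, and the distance to the nearest gene was measured on mm10 with the RefSeq genes of GRCm38.p6. SOX2 had 5235 such regions, which is 10.1% of its 51672 regions, and CTCF had 4073, which is 7.02% of its 57992. The choice used neither the fold of a peak nor the mitotic lists.

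The cells were mouse embryonic stem cells of the strain 129S5/SvEvBrd, kept in medium with serum and leukemia inhibitory factor. Asynchronous cultures were untreated, and mitotic cells were collected by shake-off after 6 h in 100 ng/ml nocodazole, a microtubule poison that arrests cells in mitosis. Each factor was immunoprecipitated with its own antibody in 2 asynchronous and 2 mitotic libraries, and the labels do not say whether replicates came from separate cultures, so that their spread may be technical. The other 78 of the 86 libraries of the series were not analysed here, and all 8 libraries used carry no genetic change in their labels.

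SOX2 is an HMG-box transcription factor that binds enhancers together with POU-domain partners and keeps embryonic stem cells pluripotent. CTCF is a zinc finger protein that stops loop extrusion by cohesin and thereby sets the anchors of chromatin loops and many domain boundaries. Deserts that flank genes of development often hold distant enhancers, which act over long distances through such loops. In mitosis most transcription stops and many factors leave the condensed chromosomes, and factors that stay on some of their sites are called mitotic bookmarks.

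The lists differed in length, and by an index of background coverage the libraries differed more between factors and between SOX2 replicates than between states. The asynchronous SOX2 lists held 90266 and 63504 peaks and the mitotic ones 1976 and 408, whereas the CTCF lists held 68328 and 67995 asynchronous and 20142 and 15338 mitotic peaks. The background coverage was the only index of depth used. It is the lowest background of a list, solved from the authors' fold and p-values, over the length of its shortest peak. The controls are not known, so it need not follow the depth of a library. It was 2.48 and 1.61 reads per 100 bp in the asynchronous and 2.62 and 1.64 in the mitotic SOX2 libraries. In the CTCF libraries it was 3.36 and 3.71 asynchronous and 3.62 and 3.77 mitotic. In the text, a region is called in a mitotic library if it shares at least 1 bp with a peak of that list, which measures detection above a threshold and not occupancy. Intervals are 95% intervals of counting error over regions, which share libraries and neighbours and are not replicates.

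The start sites of noncoding genes give a view of the sequence in deserts, since RefSeq promoters of GRCm38.p6 (250 bases before to 50 after a start) were the only sequences used. Of 2074 desert promoters, 125 overlapped a SOX2 desert region and 53 a CTCF desert region. A summit of either asynchronous list lay inside the promoter at 23 of them for CTCF, of which 8 (34.8%) held the CTCF core letters AGNNGGCGC on either strand, against 1.35% of all desert promoters and 7.23% of all 32851 promoters. For SOX2 the corresponding number was 54, of which 13 (24.1%) held CATTGT, the letters that SOX proteins prefer, against 22.6% of all desert promoters and 12.6% of all promoters. The median GC content was 45% in desert promoters, 52.7% in all promoters, 49.7% in those with a CTCF summit and 52.0% in those with a SOX2 summit. The promoters printed here hold a CTCF summit and the CTCF core letters, which are in capitals. The pair of 1700007F19Rik and Gm11691 lies in regions that were called in both mitotic lists, and the pair of Gm46796 and Gm32243 in regions called in neither.
1700007F19Rik (chr3:58163758-58164057, minus strand): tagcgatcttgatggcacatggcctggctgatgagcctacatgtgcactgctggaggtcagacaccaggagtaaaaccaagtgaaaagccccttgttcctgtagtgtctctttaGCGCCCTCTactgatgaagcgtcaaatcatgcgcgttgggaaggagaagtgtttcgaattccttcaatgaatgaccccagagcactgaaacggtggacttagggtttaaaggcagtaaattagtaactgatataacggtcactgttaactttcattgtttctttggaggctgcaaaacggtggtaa
Gm11691 (chr11:114251593-114251892, plus strand): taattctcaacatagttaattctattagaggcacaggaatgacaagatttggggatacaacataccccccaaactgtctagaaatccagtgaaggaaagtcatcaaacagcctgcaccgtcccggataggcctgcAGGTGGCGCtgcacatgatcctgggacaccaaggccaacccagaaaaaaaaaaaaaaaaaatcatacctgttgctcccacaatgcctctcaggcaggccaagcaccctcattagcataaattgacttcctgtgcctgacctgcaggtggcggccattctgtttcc
Gm46796 (chr3:6106767-6107066, plus strand): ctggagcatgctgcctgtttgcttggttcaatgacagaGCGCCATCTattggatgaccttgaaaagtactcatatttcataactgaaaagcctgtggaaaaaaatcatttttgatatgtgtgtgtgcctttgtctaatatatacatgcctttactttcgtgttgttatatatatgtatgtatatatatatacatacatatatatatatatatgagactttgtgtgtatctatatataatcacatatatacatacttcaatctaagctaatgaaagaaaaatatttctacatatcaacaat
Gm32243 (chr13:39647303-39647602, minus strand): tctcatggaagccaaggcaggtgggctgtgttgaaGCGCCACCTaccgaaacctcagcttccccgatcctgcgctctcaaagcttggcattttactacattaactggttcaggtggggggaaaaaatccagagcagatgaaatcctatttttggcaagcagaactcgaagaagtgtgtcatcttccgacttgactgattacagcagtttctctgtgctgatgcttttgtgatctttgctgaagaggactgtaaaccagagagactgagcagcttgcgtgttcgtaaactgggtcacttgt
The region at the 1700007F19Rik start had folds of 13.9 and 15.2 in the asynchronous lists, and that at the Gm11691 start had 12.7 and 10.3. The region at the Gm46796 start had 5.91 and 5.23, and that at the Gm32243 start 3.98 and 5.87, so that the uncalled pair was also the weaker in asynchronous cells. Of the 8 promoters with the core letters, the 4 in the strongest regions were called in both mitotic lists and the other 4 in neither. Of all CTCF desert regions 22.3% were called in both and 67.7% in neither, and stronger ones were called more often, as described below.

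The strongest desert regions with a SOX2 summit in a promoter that holds CATTGT were those at the starts of 1700030C10Rik, with folds of 16.7 and 9.31, and Gm39767, with 14.6 and 9.47. Both were called in neither mitotic list, as were all 13 of these promoters. Of all SOX2 desert regions 1.34% were called at least once, so no call among 13 lies near that share. The SOX letters are in capitals.
1700030C10Rik (chr12:20815730-20816029, minus strand): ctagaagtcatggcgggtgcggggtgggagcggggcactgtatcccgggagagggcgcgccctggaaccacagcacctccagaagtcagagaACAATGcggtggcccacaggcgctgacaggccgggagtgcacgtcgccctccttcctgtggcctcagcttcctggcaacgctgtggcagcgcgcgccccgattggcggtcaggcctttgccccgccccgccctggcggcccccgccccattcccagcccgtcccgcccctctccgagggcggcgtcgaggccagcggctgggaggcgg
Gm39767 (chr2:21964118-21964417, minus strand): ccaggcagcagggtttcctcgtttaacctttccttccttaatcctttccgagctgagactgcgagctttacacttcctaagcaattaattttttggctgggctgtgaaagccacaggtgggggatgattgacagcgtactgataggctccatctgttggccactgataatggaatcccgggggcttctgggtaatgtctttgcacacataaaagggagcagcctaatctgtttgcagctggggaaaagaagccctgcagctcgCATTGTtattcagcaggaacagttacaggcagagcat
The promoter of 1700030C10Rik was rich in GC at 72.7%, whereas that of Gm39767 had 49.3%.

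Mir137, the gene of a brain-enriched microRNA that acts in neuronal maturation, was the only microRNA gene that a desert region overlapped. The SOX2 region chr3:118433756-118435090 covered it at 127 kb from the nearest protein-coding gene, with modest folds of 3.57 and 4.45, and was called in neither mitotic list. Its mature products are printed with the seed, bases 2 to 8, in capitals.
mmu-miR-137-3p: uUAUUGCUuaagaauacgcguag
mmu-miR-137-5p: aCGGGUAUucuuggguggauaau

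Both factors were sparse in deserts, and SOX2 less so than CTCF. The deserts between 2 protein-coding genes, without the outer 100 kb on each side, made up 785 Mb or 29.2% of the 2691 Mb from the first to the last protein-coding gene of each chromosome. They held 6.65 SOX2 regions per Mb against 24.4 in the rest, and 5.16 CTCF regions per Mb against 28.3. Density was lower in longer deserts: it was 12.1 SOX2 regions per Mb in gaps of 200 to 500 kb and 3.92 in gaps over 2 Mb, and 10.2 and 2.64 for CTCF. Neighbours were accordingly far apart, with a median of 19.2 kb to the nearest other SOX2 region in deserts against 7.08 kb elsewhere, and 28.9 kb against 6.77 kb for CTCF. Of 1194 deserts with a region, 858 held both factors, 182 only SOX2 and 154 only CTCF. The median distance to a protein-coding gene was 218 kb for SOX2 and 205 kb for CTCF members, and the farthest lay 2149 and 2188 kb away.

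The share of peaks in deserts separated the factors in asynchronous cells. It was 9.42% and 9.53% in the SOX2 lists (mean 9.48% ± 0.0801, SD, n = 2) and 6.82% and 6.87% in the CTCF lists (6.84% ± 0.0350, SD, n = 2). The factors did not overlap, and the difference of 2.64 percentage points had p = 0.333 in a two-sided exact permutation test, the smallest p that 2 against 2 libraries allow. It was 5.75 points when weaker peaks, of folds below 5, were left out, 1.25 points at over 250 kb, and 0.570 points at over 100 kb from a gene of any type. In mitosis 80 of 1976 SOX2 peaks (4.05%) lay in deserts in replicate 1 and 32 of 408 (7.84%) in replicate 2. Both shares were below those of asynchronous cells. The replicate 2 share includes peaks at members of high background. Replicate 2 called 25 members, and 17 without those of high background, as described below. The upper quartile of reads at the summit was 264 in deserts and 28 elsewhere in replicate 2, and 39 and 34 in replicate 1. The mitotic mean of 5.95% ± 2.68 (SD, n = 2) differed from the asynchronous mean by -3.53 points, with the same smallest p of 0.333 in the exact permutation test. In the CTCF lists the mitotic shares of 6.48% and 6.30% differed from the asynchronous ones by -0.446 points on average, again without overlap and with p = 0.333 in the exact permutation test. Nearly all desert peaks of mitosis were also peaks of asynchronous cells, namely 75 of 80 and 32 of 32 for SOX2 and 1300 of 1306 and 964 of 967 for CTCF.

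**Figure D1:**
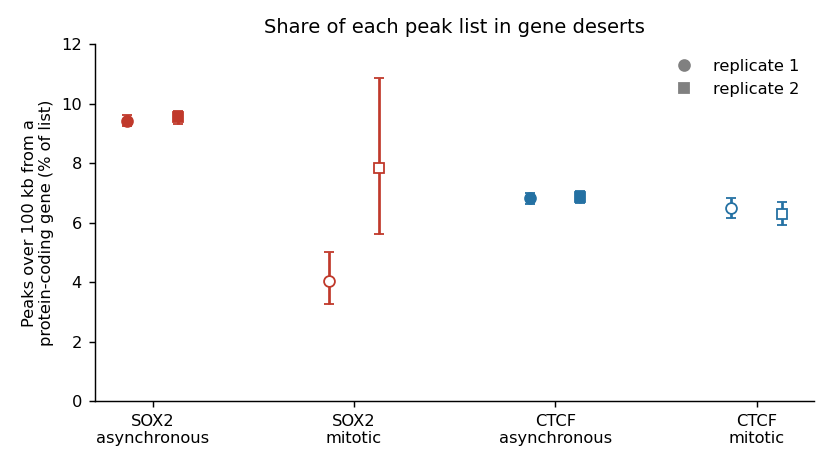
Share of each peak list, in percent, that lies over 100 kb from a protein-coding gene, by factor and cell state; filled symbols are asynchronous and open symbols mitotic libraries, and bars are 95% Wilson intervals of counting error. The asynchronous SOX2 lists sit at 9.42% and 9.53%, the mitotic ones at 4.05% and 7.84% with wide bars, and the 4 CTCF lists between 6.30% and 6.87%. The 7.84% includes peaks of high background.

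Desert SOX2 regions had higher folds than SOX2 regions elsewhere, and desert CTCF regions lower ones. The median fold of SOX2 regions was 6.48 against 5.16 in asynchronous replicate 1 and 5.56 against 4.84 in replicate 2, and 745 members (14.2%) had a strength over 90 against 8.57% elsewhere. For CTCF the medians were 5.99 against 6.53 and 5.72 against 6.33, and 126 members (3.09%) had a strength over 90 against 7.67% elsewhere. Strength ranks a region from 0 to 100 by its best fold among all regions of the factor in 1 list, as the mean of the 2 asynchronous ranks, and its median was 58.6 for SOX2 members and 44.9 for CTCF members.

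A fold is coverage over a local background, and the 2 parts moved differently. Coverage at the summit was solved from the fold and p-value of each peak and came out as a whole number of reads, within 0.01, for over 99.9% of peaks in each list. At SOX2 peaks the median coverage was 32 reads in deserts and 31 elsewhere in replicate 1, and 25 and 24 in replicate 2, whereas the median local background was 5.45 against 7.12 and 3.5 against 4.58 reads. The higher median SOX2 folds in deserts thus went with a lower median background at almost equal median coverage. The upper quartile of SOX2 coverage was higher in deserts, at 54 against 47 and 40 against 36 reads. Coverage and background were taken over all peaks of each list, whereas the folds above were of regions found in both lists. At CTCF peaks the coverage itself was lower in deserts, at 46 against 54 and 47 against 54 reads, and the background was lower too, at 7.23 against 9.09 and 7.32 against 9.11 reads. Desert regions were narrower for both factors, with medians of 604 against 665 bp for SOX2 and 491 against 621 bp for CTCF. The part of the background in the mitotic calls was not tested.

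**Figure D2:**
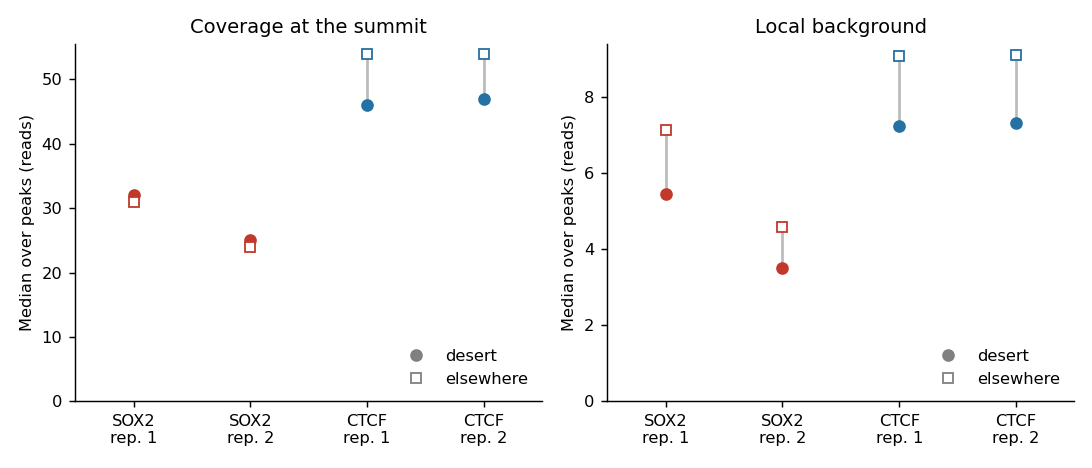
Median coverage at the summit (left) and median local background (right), in reads, of the asynchronous peaks in deserts (filled circles) and elsewhere (open squares), by factor and replicate. SOX2 coverage is close in the 2 classes while its background is lower in deserts, and CTCF is lower in deserts in both panels.

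Few SOX2 members were found in mitosis. Replicate 1 called 64 of 5235 (1.22%), against 3.37% of all SOX2 regions, and replicate 2 called 25 (0.478%), against 0.755% of all. The mean share was 0.850% ± 0.527 (SD, n = 2). Both libraries called 19 members (0.363%, 0.675% of all regions) and at least 1 library called 70 (1.34%, 3.45% of all regions), while 5165 were called in neither. The direction was the same in each library: 1.22% in deserts stood against 3.61% elsewhere in replicate 1 (odds ratio 0.331, 95% interval 0.257 to 0.425) and 0.478% against 0.786% in replicate 2 (0.606, 0.403 to 0.909). Over regions called at least once the odds ratio was 0.354 (0.278 to 0.451) (1.34% against 3.68%). The odds ratio was 0.573 (0.445 to 0.739) against only those other regions that lie outside genes, and 0.194 (0.0868 to 0.434) for members over 100 kb from a gene of any type. The mean share was 0.506% when peaks of folds below 5 were left out of both the asynchronous and the mitotic lists. It was 0.520% over regions of either asynchronous library, 0.553% without asynchronous replicate 2 and 0.420% with mitotic lists of equal length. On each of 20 chromosomes the desert share was below the share elsewhere. A test over the 2 libraries could not go below p = 0.5, so the odds ratios rest on counting error alone.

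CTCF members were found in mitosis far more often, and almost as often as CTCF regions elsewhere. Replicate 1 called 1273 of 4073 (31.3%), against 33.0% of all CTCF regions, and replicate 2 called 951 (23.3%), against 25.4% of all, with a mean of 27.3% ± 5.59 (SD, n = 2). Both libraries called 908 (22.3%, 24.5% of all regions), at least 1 called 1316 (32.3%, 34.0% of all regions), and 2757 were called in neither. The odds ratio of deserts against elsewhere was 0.923 (0.862 to 0.988) over regions called at least once. It was 0.950 (0.890 to 1.01) without asynchronous replicate 1 and 0.955 (0.894 to 1.02) without asynchronous replicate 2, so the small difference did not hold up when either list was left out. The mean desert shares of the 2 factors differed by 26.5 points, and every CTCF library was above every SOX2 library (p = 0.333, exact permutation test, the smallest possible). The antibodies differ between the factors, so detection and occupancy cannot be told apart in that comparison.

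The distance to a gene ordered the SOX2 shares in replicate 1 up to 1 Mb. Of 27645 SOX2 regions inside or overlapping a gene 4.54% were called in replicate 1, followed by 2.65% up to 10 kb, 2.15% from 10 to 50 kb, 1.49% from 50 to 100 kb, 1.47% from 100 to 250 kb, 0.997% from 250 to 500 kb and 0.538% from 500 kb to 1 Mb. The class up to 1 Mb rested on 3 called regions of 558. Over 1 Mb it was 1.10%, or 3 of 273. In replicate 2 the shares were 0.915% inside genes, between 0.214% and 0.672% from there to 1 Mb, and 1.47% over 1 Mb, the highest class, without an order. CTCF shares were highest from 10 to 50 kb, at 37.1% and 29.1%, and lowest over 1 Mb, at 21.6% and 16.5% of 139 regions. The median strength of CTCF regions was 55.8 from 10 to 50 kb and 32.2 over 1 Mb, while that of SOX2 regions was 44.4 inside genes and 65.7 over 1 Mb. From 10 to 50 kb outward CTCF strength and both CTCF shares were lower with distance, whereas SOX2 strength was higher with distance while the replicate 1 share was lower up to 1 Mb.

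**Figure D3:**
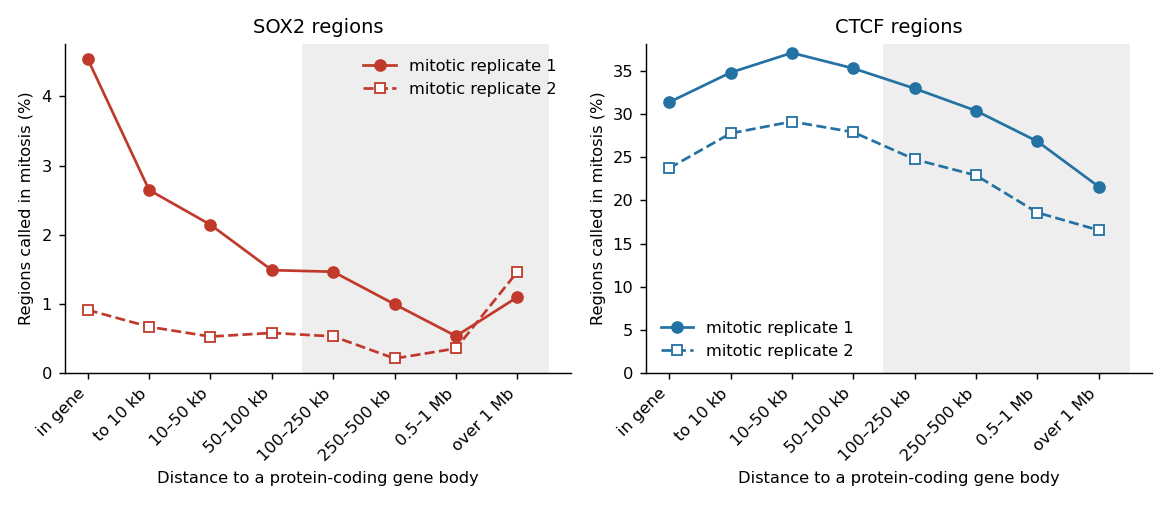
Percent of asynchronous regions called in each mitotic library, by distance to the nearest protein-coding gene body, for SOX2 (left) and CTCF (right, another scale); the grey area marks deserts. SOX2 replicate 1 goes from 4.54% inside genes to 0.538% at 500 kb to 1 Mb, and the rise of replicate 2 over 1 Mb rests on 4 of 273 regions, all in the cluster of high background on chromosome 2.

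At equal strength the factors went opposite ways. Within 10 classes of asynchronous strength the SOX2 odds ratio was 0.272 (0.213 to 0.347), and the CTCF odds ratio turned from below 1 to 1.56 (1.42 to 1.70). The CTCF value was 2.66 (2.42 to 2.92) within classes of summit coverage, and the SOX2 value there was 0.297 (0.232 to 0.380). Within classes of strength and width together the odds ratios were 0.431 for SOX2 and 2.16 for CTCF, and within classes of −log10 p 0.280 and 2.23. In 9 of 10 strength classes desert CTCF regions were called more often than CTCF regions elsewhere, as in class 6, where 39.6% of 528 stood against 28.0%. In class 10, the strongest, 92.1% of 189 desert CTCF regions were called against 90.3%, within each other's intervals. Desert SOX2 regions were called less often in 9 of 10 classes, with 0.634% against 7.10% in class 9 and 4.85% (3.57 to 6.56) against 11% (10.1 to 11.9) in class 10. The exception was the weakest class, with 9 of 193 (4.66%) against 0.764%.

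**Figure D4:**
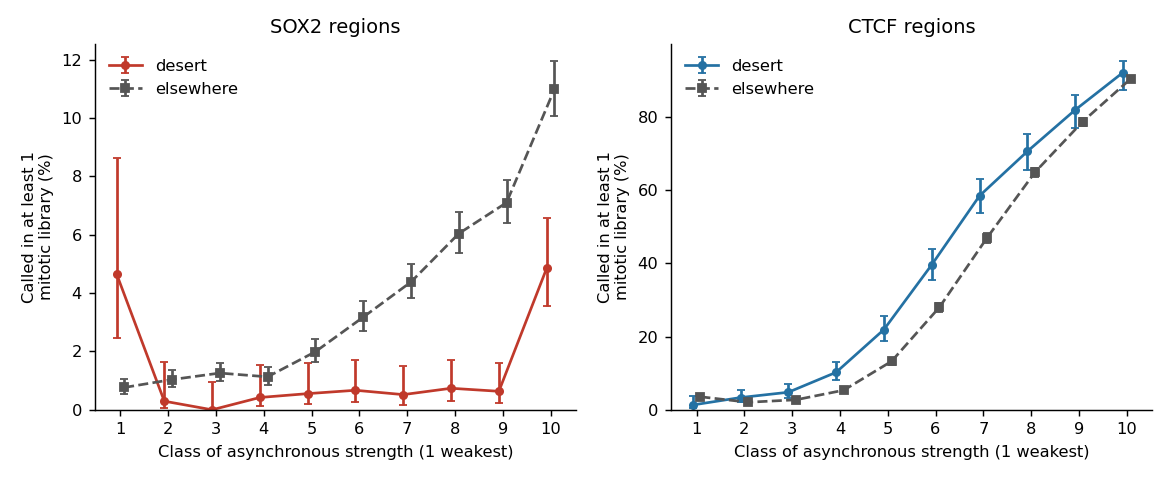
Percent of regions called in at least 1 mitotic library by class of asynchronous strength (1 weakest, 10 strongest), in deserts (circles) and elsewhere (squares), with 95% Wilson intervals; left SOX2, right CTCF on another scale. Desert SOX2 lies below elsewhere from class 2 to class 10, and desert CTCF lies above it from class 2 to class 10.

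Some weak SOX2 members called in mitosis had very high coverage over a high background. Of the 70 members called at least once, 9 had a fold below 3 in an asynchronous list, 7 of these were called in replicate 2, and 8 had a background over 50 reads in an asynchronous list. Of the 9, 4 lie together in the desert of Lrrc4c within chr2:98662207-98667319, about 1 Mb from the gene. The region chr2:98666204-98667319 had 438 and 424 reads at its summits over backgrounds of 252 and 285 in asynchronous cells, and 356 reads over 217 in mitotic replicate 2. Its folds were 1.74, 1.49 and 1.64 in these 3 lists, and it was not called in mitotic replicate 1. The region chr17:39843022-39848808 overlaps the ribosomal RNA pseudogene Rn18s-rs5 and the lncRNA AY036118, and had folds of 2.47 and 3.17 in asynchronous and up to 1.51 and 1.58 in mitotic cells. CTCF was called at that place in all 4 lists as well, with 388 and 394 reads in asynchronous cells and 418 and 414 in mitosis. Without the 11 desert and 14 other SOX2 regions whose asynchronous background was over 50 reads, replicate 2 called 17 members (0.325%) against 0.778% elsewhere, both libraries called 16, and at least 1 called 61 (1.17%; odds ratio 0.310, 0.240 to 0.401). Of the 19 members called in both, 16 remained although only 2 had a fold below 3, so the left-out set was not confined to the weak members. It was chosen after the values were seen.

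Most of the 19 SOX2 members called in both mitotic lists were among the strongest SOX2 regions of asynchronous cells. Their median strength was 97.7 and their median width 1790 bp, against 58.4 and 602 bp for members called in neither. The strongest was chr12:35641594-35643961, 107 kb from Ahr, the gene of the ligand-activated aryl hydrocarbon receptor, with folds of 56.7 and 49.4 in asynchronous and 6.11 and 5.73 in mitotic cells. Next came a region 200 kb from Zfp804a, a zinc finger gene, with 44.3 and 44.5 in asynchronous and 5.41 and 3.5 in mitotic cells. A region 101 kb from Arg1, the arginase of the urea cycle, had 37.8 and 40.7 against 7.60 and 9.43 in mitosis. In all 3 the mitotic folds were several times lower than the asynchronous ones, although folds of separate lists are on separate scales.

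The list of developmental genes described further on held the nearest gene of 3 of the 19, Zeb2, Nr2f1 and Dlx2, and of 302 of all 5235 SOX2 members (5.77%), a difference that was not tested. A region 421 kb from Tox3, the gene of an HMG-box nuclear protein, and in the desert it shares with the zinc finger gene Sall1, had folds of 34.9 and 44.1 in asynchronous and 2.73 and 6.12 in mitotic cells. The region chr2:45735876-45736979, 618 kb from Zeb2, a repressor of epithelial genes, had 29.7 and 23.6 against 5.62 and 6.18. A region 228 kb from the orphan nuclear receptor gene Nr2f1 had 21.3 and 23.3 against 3.56 and 4.84. A region 109 kb from Dlx2, a homeobox gene of the forebrain, had 22.9 and 14.3 against 3.95 and 4.84. The rest of the 10 strongest lay near Pik3c3, Kcnj16, Ermard, Tex29 and Fancl, with asynchronous folds from 19.3 to 42.4. The highest mitotic folds of the 19 belonged to the region near Ermard (chr17:15206787-15208901, over the lncRNA Gm35502), at 17.5 and 15.8 against 25.2 and 27.5 in asynchronous cells.

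Strength did not suffice for a SOX2 call in mitosis. Of the 50 strongest SOX2 members 10 were called at least once, and of the 50 strongest SOX2 regions elsewhere 25 were, but these were taken from 46437 regions against 5235 members and were therefore a more extreme choice. The strength classes above make the comparison at like strength. Of the 500 strongest members 464 were called in neither, 36 at least once and 12 in both. The strongest uncalled member was chr14:86395456-86397811, 258 kb from the formin gene Diaph3, with folds of 39.8 and 48.8. Others near the top were 536 kb from Cntn5, a neuronal contactin (41.1 and 40.7), 277 kb from the membrane protease gene Mmp16 (39.6 and 42.3), 527 kb from the potassium channel gene Kcnd2 (43.0 and 37.7) and 653 kb from Hdgfl1 (41.4 and 38.0). Regions 816 kb from Gsdmc in the desert that it shares with Myc (42.4 and 34.5), 521 kb from Fbxo15 (36.0 and 38.3) and 408 kb from Cdh2, the gene of N-cadherin (38.8 and 34.0), were uncalled as well. The list of 10 ended with regions near Wscd1 and Gadl1, at folds from 35.5 to 39.4.

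For CTCF strength and mitotic calls went together. Of the 50 strongest CTCF members 43 were called in both mitotic lists, 2 in only 1 and 5 in neither. The median strength was 73.3 in members called in both and 34.5 in members called in neither. The strongest was chr6:50936436-50939902, 282 kb from the neuropeptide gene Npvf and over the lncRNA Gm31686, with folds of 34.3 and 32.8 in asynchronous and 25.5 and 13.1 in mitotic cells. A region over the lncRNA Morrbid (chr2:128411805-128413441), in the desert next to the pro-apoptotic gene Bcl2l11, had 29.8 and 37.3 against 10.2 and 9.53. A region 137 kb from Cog6, a gene of Golgi transport, in the desert it shares with Foxo1, had 29.5 and 31.7 against 30.9 and 23.2 in mitosis, the highest mitotic folds of the 10 strongest. The other 7 of these lay near Zfp637, Csl, Lmcd1, Ank, Dsel, Nphp4 and Zxdb, with mitotic folds from 3.89 to 14.5.

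Strong CTCF members without a mitotic call were few. The strongest, chr14:53654338-53655350, lies in the T cell receptor alpha locus Tcra, 580 kb from Dad1, with folds of 25.4 and 20. The next was chr16:73155053-73156209, between the axon guidance receptor genes Robo1 and Robo2, with 28.4 and 17.7. The other 8 of the 10 strongest uncalled members had folds from 11 to 27.7 and strengths down to 89.3. Of these, 3 were on chromosome 15, near Ranbp3l, Efr3a and Gm6569.

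CTCF was called in mitosis at great distances from genes too, but less often than among all CTCF members. Over 1 Mb from any protein-coding gene, 22 of 139 members (15.8%) were called in both mitotic lists, against 22.3% of all CTCF members. At least 1 list called 31 (22.3%), against 32.3% of all. Of the 22, 3 lay from 1102 to 1183 kb from Gata3, the gene of a GATA factor of T cell and ear development, in its desert with Celf2, with asynchronous folds from 6.54 to 11.3 and mitotic folds from 2.95 to 5.49. A region 1605 kb from Lrrc4c, a synaptic adhesion gene (chr2:99236809-99237484), had 7.39 and 9.33 in asynchronous and 11.7 and 7.65 in mitotic cells. The farthest called member was 1962 kb from Pcdh20 in the desert of 2 protocadherins (chr14:90433120-90433628), with 9.31 and 8.54 against 8.51 and 7.15. The farthest CTCF member of all, 2188 kb from Pik3c3, had weak folds of 3.49 and 3.99 and no call. For SOX2, the farthest 5 lay between 1971 and 2149 kb from Pcdh17, Olfm4 or Celf4 and had no call, though chr18:27725922-27727051 had folds of 32.3 and 26.9.

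The desert with most SOX2 regions, between Enc1 and Arhgef28 on chromosome 13, held 39 in 646 kb. Enc1 encodes an actin-binding protein of neurons, and the SOX2 regions overlap Lncenc1, a lncRNA known from embryonic stem cells. The strongest, chr13:97454527-97455416, had folds of 27.6 and 19.3, the median over the 39 was 5.05 and 4.73, and none was called in mitosis. With 1.34% of all SOX2 members called at least once, a count of 0 in a desert of this size lies near the share of all members, here and in the deserts that follow. The 9 CTCF regions of that desert were not called either, with a highest pair of folds of 12.5 and 6.67. The desert of Cd83 and Jarid2, the latter a cofactor of Polycomb repressive complex 2, held 36 SOX2 regions, up to 36.6 and 31.4, of which none was called, and 8 CTCF regions, of which 3 were called at least once. Between Bcl11a and Fancl 2 of 33 SOX2 regions were called at least once, and between Cdh2 and Dsc3 1 of 30. The desert downstream of Sox2 itself, up to Atp11b, held 29 SOX2 regions of which none was called and 14 CTCF regions of which 6 were called, and its region chr3:34755427-34758901, 103 kb from Sox2, had SOX2 folds of 18 and 20.9.

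The desert with most CTCF regions lies between Gm4868 and Tmem132c on chromosome 5 and held 57 in 1392 kb. Replicate 1 called 26 of them and replicate 2 called 20, all 20 among the 26, against 31.3% and 23.3% of all CTCF members. The strongest called, chr5:126733441-126734077, had asynchronous folds of 13.3 and 11.7. The same desert held 22 SOX2 regions, up to 22.2 in replicate 1, and none of them was called. Antigen receptor loci came next, whose gene segments are not of the protein-coding type in the table. The T cell receptor alpha and delta desert between Gm36448 and Dad1 held 48 CTCF regions (10 called in both lists) and the immunoglobulin heavy chain desert between Adam6a and Zfp386 38 (9 in both). The desert between Matn1 and Ptpru held 21, of which 5 were called in both. In all, 129 CTCF and 47 SOX2 members lay within 100 kb of such a segment, and 38 (29.5%) and 0 of them were called at least once, near the 32.3% and 1.34% of all members.

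**Figure D5:**
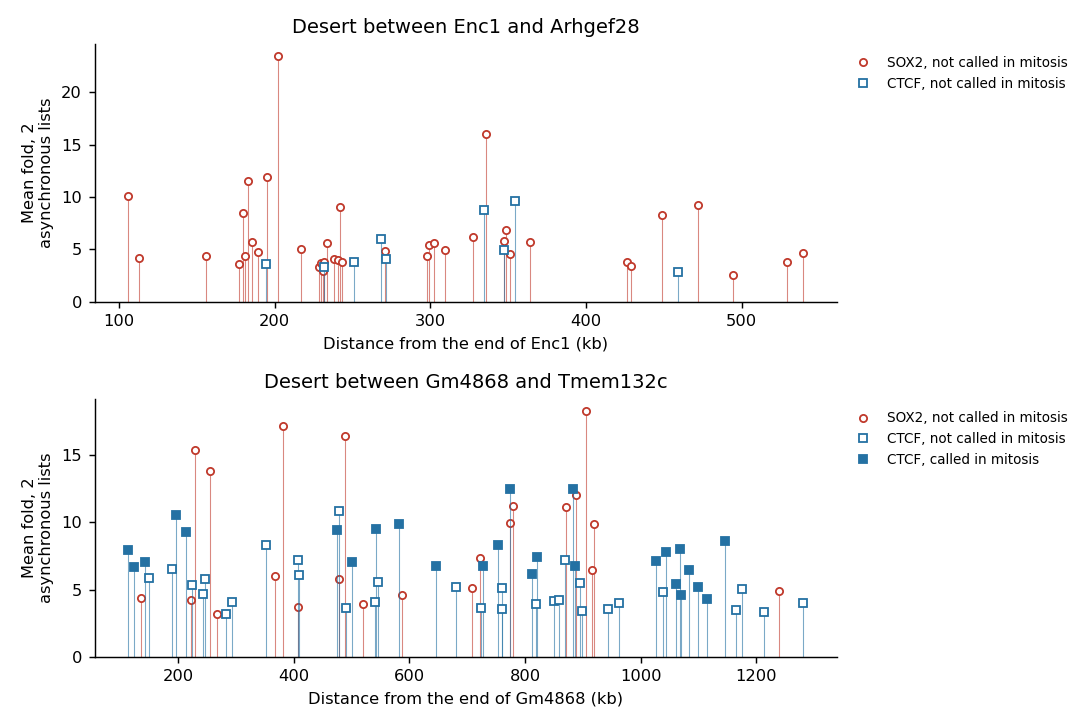
SOX2 (circles) and CTCF (squares) regions in the 2 deserts with most SOX2 (top) and most CTCF regions (bottom), by distance in kb from the left gene, with the mean fold of the 2 asynchronous lists as height; filled symbols were called in at least 1 mitotic list. No region of the upper desert is filled, and 26 CTCF but no SOX2 regions of the lower one are.

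SOX2 and CTCF regions overlapped less often in deserts than elsewhere, where both were also denser. Deserts held 5.16 CTCF regions per Mb against 28.3 in the rest, and 6.65 SOX2 regions against 24.4. The part of this density in the overlap was not tested. Of the SOX2 members 446 (8.52%) overlapped a CTCF region, against 21.6% elsewhere (odds ratio 0.337, 0.305 to 0.372), and of the CTCF members 458 (11.2%) overlapped a SOX2 region, against 18.8% (0.547, 0.495 to 0.605). The CTCF value was 0.934 (0.841 to 1.04) within classes of strength and width, where the corresponding SOX2 value was 0.449 (0.405 to 0.497). With summits within 100 bp as the measure, the odds ratios were 0.538 for SOX2 and 0.822 for CTCF. SOX2 members that overlapped CTCF were called more often in mitosis: 27 of 446 (6.05%, 4.19 to 8.66) against 43 of 4789 without CTCF (0.898%, 0.667 to 1.21), an odds ratio of 7.11 (4.35 to 11.6). The overlapping members were wider, with a median of 765 against 598 bp, and slightly weaker, at 54.4 against 58.9. Elsewhere SOX2 regions with CTCF were also called more often, 885 of 10051 (8.81%) against 826 of 36386 (2.27%). CTCF members with and without SOX2 were called at 34.3% and 32.1%, within each other's intervals (odds ratio 1.11, 0.900 to 1.36). CTCF regions elsewhere were called more often with SOX2, at 42.6% against 32.1% without. SOX2 members without CTCF remained below SOX2 regions elsewhere without CTCF, of which 2.27% were called at least once (odds ratio 0.390, 0.287 to 0.531).

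Noncoding genes were common neighbours. Of the SOX2 members 965 (18.4%) and of the CTCF members 711 (17.5%) overlapped a lncRNA, against 19.2% and 16.4% of the other regions outside protein-coding genes. At lncRNAs 19 SOX2 members (1.97%) and 259 CTCF members (36.4%) were called at least once, against 50 of 4155 (1.2%) and 1003 of 3176 (31.6%) at no gene of any type. Pseudogenes were overlapped by 76 SOX2 and 50 CTCF members, and tRNA genes by 1 of each. Among the strongest SOX2 members at lncRNAs, the region over Gm20139, 148 kb from the neural factor gene Olig3, had folds of 34.2 and 32.6 and was called in mitotic replicate 1 alone at 4.75. The region over Gm30895 between Med13l and Tbx3, a T-box gene of the pluripotency network, had 32.0 and 49.8 and was likewise called in replicate 1 alone, at 5.26.

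Of 41 pluripotency regulators 13 had a desert at their side. They were the nearest gene of 126 SOX2 members, of which 1 was called at least once, and of 53 CTCF members, of which 13 (24.5%) were. Over all members 1.34% and 32.3% were called. Mycn, a growth regulator, had 20 SOX2 regions, of which 1 was called, Nr5a2, a nuclear receptor that supports Oct4 expression, had 14 with folds up to 28.9 and 24.6, and Klf5, a Krüppel-like factor, had 5 up to 23.3 and 19.5, with none called. Around Nr5a2 3 of 11 CTCF regions were called in both lists, the strongest with asynchronous folds of 17.2 and 14.8. The median strength over the list was 56.0 for SOX2 and 39.5 for CTCF, against 58.6 and 44.9 over all members.

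Of 140 developmental transcription factors and signals 91 had a desert at their side. They were nearest to 302 SOX2 members, of which 7 (2.32%) were called at least once and 3 (0.993%) in both, against 1.34% and 0.363% of all SOX2 members. Of the 207 CTCF members nearest to them 53 (25.6%) were called at least once, against 32.3% of all. Klf6, a Krüppel-like factor, had most SOX2 members, 19, with a strongest region of 18.7 and 27.9, and none was called. Of the 12 around Sall1 2 were called, in replicate 1 alone, and none of the 12 around the neural POU factor gene Pou3f3, although the strongest there reached 28.0 and 23.6. Foxa2, a pioneer factor of endoderm, had 9 CTCF members, of which 3 were called in both lists, and 3 of the 4 CTCF members nearest to Irx3, a homeobox gene of patterning, were called at least once. Nfib and Klf14 had 5 and 6 CTCF members and no call.

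Neuronal adhesion and synapse genes often stood beside a desert, 83 of 101 in all, and the median distance of their members was 434 kb for SOX2 and 516 kb for CTCF. They were nearest to 432 SOX2 members (8.25% of all), with a median strength of 63.6, of which 8 (1.85%) were called at least once and 0 in both, against 1.34% and 0.363% of all SOX2 members. Adgrl2, an adhesion receptor of synapses, had 27 SOX2 members up to 25.1 and 29.0, and none was called. Around the protocadherin genes Pcdh9 and Pcdh17 the strongest of 15 and 14 members had 36.1 and 28.0 and 30.3 and 19.1, again uncalled. Lrrc4c had 4 called members of 11, all of them the high-background regions of chromosome 2 described above. They are 4 of the 8 called SOX2 members of the list, so its share of 1.85% depends on them. To CTCF the list contributed 235 members, of which 54 (23.0%) were called, against 32.3% of all, with a median strength of 37.0 against 44.9. Olfactory and vomeronasal receptor genes, which stand in clusters, were nearest to 10 SOX2 and 33 CTCF members, of which 1 and 5 were called at least once, numbers too small to set against the 1.34% and 32.3% of all members.

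On the X chromosome no SOX2 member was called. The 0 of 149 allow a share of up to 2.01% by the limit of 3 counts and 2.51% by the Wilson interval. Of the autosomal members 1.38% were called at least once, so a lower share was not detectable at this number. SOX2 regions of X outside deserts were called less, at 0.825% against 3.74% on the autosomes. Of the 124 CTCF members on X, 21 (16.9%, 11.4 to 24.5) were called at least once, against 32.8% (31.3 to 34.3) on the autosomes. CTCF regions of X outside deserts were also called less, at 19.8% against 34.4%. The CTCF members on X had a lower median strength, 32.1 against 45.5, and a smaller width, 362 against 495 bp. The part of these in the CTCF difference was not tested. The SOX2 members on X had a higher median strength, 67.7 against 58.5, and a smaller width, 552 against 605.5 bp. The lncRNA gene Firre, which is known for its arrays of CTCF sites, lies at chrX:50563120-50635321 and held 16 CTCF members with folds from 3.05 to 7.32 in replicate 1 and 3.25 to 5.29 in replicate 2. None of the 16, nor of the 21 in the whole desert between Olfr1324 and Stk26, was called in a mitotic list. Of all CTCF members 32.3% were called at least once. The 16 had a median strength of 36.0, against 44.9 over all CTCF members. The regions of this desert are among the 124 CTCF members on X and lower the share called there.

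Regions at the limit of 100 kb were unremarkable in value. Just inside were SOX2 regions near Kcnh8, Dmrt2 and Bnip2, at 100.1 kb, with folds from 3.51 to 10.0, and CTCF regions near Chic2, Nxt1 and Zfat, with folds from 3.06 to 13.1. Just outside, at 99.9 to 100.0 kb, were SOX2 regions near Cited2, Gm4907 and Tomm20, with folds from 4.67 to 10.4, and CTCF regions near Sema3e, Tm2d1 and Car2, with folds from 2.89 to 10.3. Of these 12, the region near Tm2d1 was called in mitotic replicate 1 and the others in no mitotic list.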

How the data were processed

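Peak lists of 8 ChIP-seq libraries were used. MACS2 2.1.1.20160309, BWA 0.7.17, CASAVA 1.4 and SAMtools stand in the submitters' processing notes beside the build mm10; options, filters and controls were not found in the labels or headers. Each deposited narrowPeak list holds the peaks of a single library with the authors' fold (a ratio of coverage to local background), −log10 p-value, −log10 q-value and summit offset. Folds served only to describe and rank peaks within a list.

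Overlapping peaks of both asynchronous lists (at least 1 bp) were merged, regions with a peak in each were kept, and distances were taken to 21887 protein-coding gene bodies of RefSeq GRCm38.p6, the assembly of mm10. Summit coverage and local background were solved from fold and −log10 p under a Poisson model; they are on the peak caller's scale, whose depth is known only from the lists. Library shares were compared by exact permutation tests, regions by odds ratios with 95% intervals from the log odds ratio or Mantel-Haenszel classes, and single shares by Wilson intervals, which cover counting error only. Python 3.11.15, pandas 2.3.3, scipy 1.17.1 and statsmodels 0.14.6 were used.

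The regions named are, per factor, the 10 strongest called in both mitotic lists, the 10 strongest in neither, the 5 farthest from a gene, those of the 5 richest deserts (1 CTCF desert is not reported here), 3 on each side of 100 kb and genes of 4 lists; other regions were picked after their values were seen. Members and lists were chosen with earlier results of these data known. Alternatives covered the distance, peak threshold, overlap, strength classes and each library; classes of coverage, −log10 p and width, the high-background set, the comparison outside genes, overlap of the other factor and antigen receptor loci were added after seeing the data. The code was tested on simulated data: overlap and distance matched bedtools for 2000 of 2000 intervals, intervals of a known odds ratio of 0.35 held it in 95 of 100 sets, and coverage was recovered for 4997 of 4997 summits. No genome sequence was used here, so sequences are limited to RefSeq promoters and microRNAs.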

Additional observations from a re-analysis of the deposited data

Results flagged for a closer look

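The difference of deserts from elsewhere was not the same for the 2 factors. The odds ratio of a mitotic call, deserts against elsewhere, was 0.354 for SOX2 and 0.923 for CTCF, and the ratio of these was 0.384 (95% interval 0.299 to 0.493), which excludes 1. The interval covers counting error over regions only, and the 2 libraries per group allow no test of it over samples.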

How the results depend on the processing

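The SOX2 odds ratio of deserts against elsewhere stayed below 1, with an interval that excludes 1, in all 22 alternatives, from 0.194 over 100 kb from a gene of any type to 0.606 without mitotic replicate 1; against other regions outside gene bodies it was 0.573. The CTCF odds ratio of 0.923 reversed within classes of asynchronous strength (1.56), of strength and width (2.16), of −log10 p (2.23) and of summit coverage (2.66). Its interval included 1 at over 50 kb (0.993), for regions of either asynchronous library (0.958), with summits within 100 bp (0.949) and for regions without SOX2 overlap (0.997). Leaving out each library gave 0.885 to 0.955 for CTCF and 0.331 to 0.606 for SOX2. The share of CTCF members called was 20.5% with a fold of at least 5 and 21.5% for regions of either library, against 27.3%. That fold limit was set on the mitotic lists too, so mitotic peaks below it no longer counted as calls. The SOX2 share of 0.850% was 0.478% to 1.22% with libraries left out, 0.506% with a fold of at least 5, 0.520% for regions of either library and 0.420% with mitotic lists at equal length. The overlap of CTCF members with SOX2 had an odds ratio of 0.934 within classes of strength and width. The cause of these changes was not tested.

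With a replicate block, in which lists of the same replicate number were compared, the shares were 0.606% for SOX2 and 24.0% for CTCF, 23.4 points apart, and the odds ratios 0.423 and 0.933; no direction or call changed. The labels do not say that numbers pair the samples. The lists hold only peaks past a threshold (a q of 0.05), so a region that is not called may still be bound.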
